A study of Mus musculus with 28 samples.

Results

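Expression of 10 genes of nucleic acid sensing was compared between control mice and mice that express human APOBEC3B (A3B), a cytosine deaminase that acts on single-stranded nucleic acid. The genes were chosen by name as the sensors Ddx58, Ifih1, Dhx58, Eif2ak2, Tlr3, Tlr9 and Aim2, the adaptors Mavs and Tmem173, and the exonuclease Trex1, and the choice used none of their measured values as a threshold. They were 10 of 35928 gene symbols in the liver and pancreas data and 10 of 24845 in the table of gene values for liver and lung. In the liver and pancreas data the deposited values were estimated counts and TPM (a level corrected for transcript length and library size) for each transcript, and they were summed over the transcripts of each gene. The comparison throughout was A3B mice against control mice within a tissue and a data set.

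The A3B mice carried 2 transgenes, a tetracycline-operator construct of human A3B fused to turbo-GFP in the ColA1 locus and the CAGs-rtTA3 driver, which is broadly active and turns the construct on when doxycycline is given. Mice were about 4 weeks old at the start and received food with 625 ppm doxycycline, and the A3B mice were taken at a humane endpoint. In the liver and pancreas data, A3B livers came from mice 44, 48, 49, 125, 137 and 153, A3B pancreases from mice 44, 49, 53, 125, 137 and 153, and both organs of control mice 45 and 168 were taken. The labels give 10 days for all of these samples, and the study's methods have control littermates fed doxycycline, whereas a legend of the study describes the 2 control animals of its RNA editing calls as without it. The control livers 45 and 168 are labelled A3B, without the driver. The genotype field of the control pancreases 45 and 168 names both transgenes, and that of A3B pancreases 44 and 137 names A3B alone, so the title decided the group of these 4 samples. In the table for liver and lung, A3B livers came from mice 23 and 28 (14 days) and 70 (10 days), A3B lungs from mice 69, 70 and 74 (10 days), and all 6 control samples are labelled 15 days, whereas the mouse list of the study gives most of these controls as not treated. Control liver 11 is labelled with both transgenes, control lung 87 with CAGs alone, and control livers 91 and 92 and control lungs 88 and 91 with A3B alone. Each sample was a separate mouse within its group, so the p-values measure the spread between these mice, and treatment time and group cannot be told apart in the table, nor doxycycline and group in either set where the controls were not fed it.

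RIG-I (Ddx58) and MDA5 (Ifih1) bind viral or misplaced double-stranded RNA in the cytosol and signal through the mitochondrial adaptor MAVS, and LGP2 (Dhx58) modulates both. PKR (Eif2ak2) binds double-stranded RNA and halts translation by phosphorylating eIF2-alpha. STING (Tmem173) is the adaptor for cytosolic DNA, AIM2 is a DNA sensor that builds an inflammasome, TLR3 and TLR9 read double-stranded RNA and CpG DNA in endosomes, and TREX1 degrades cytosolic DNA. Several of these genes are themselves induced by interferon, through a response element of paired GAAA repeats.

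Promoter windows from RefSeq (GRCm38.p6, from 250 bases before to 50 bases after an annotated start) were found for 8 of the 10 genes, and the element was searched on both strands as GAAANNGAAA. It lay in 3 of these 8 genes, and in 3.44% of all 32851 windows. The stretches are printed because they hold the letters of the interferon element in 3 RNA sensors, which is a description and no measure of binding. Capitals mark the match, the sequence runs 5′ to 3′ on the strand of the gene, and the Ddx58 match reads GAAANNGAAA on the opposite strand.
Ifih1: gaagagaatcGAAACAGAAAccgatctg
Ddx58: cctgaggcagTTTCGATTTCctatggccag
Eif2ak2: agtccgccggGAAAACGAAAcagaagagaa
The Ifih1 stretch is chr2:62646206-62646233, the Ddx58 stretch chr4:40239804-40239833 and the Eif2ak2 stretch chr17:78882535-78882564, all on the minus strand. Counted from the first base after the RefSeq start, the matches covered bases 33 to 42 in Ifih1, 3 to 12 in Ddx58 and 19 to 28 in Eif2ak2, and in GENCODE M21 all 3 stretches overlap the first exon and untranslated leader of the -201 transcript of their gene. Aim2, Mavs, Tlr3, Tlr9 and Trex1 held no match in their windows. A looser gamma-activated site, TTCNNNGAA, occurred in 1 of the 8 genes (Eif2ak2) and in 8.3% of all windows, and the core GGGANNNNCC of NF-kappaB sites occurred in 2 (Tlr3 and Eif2ak2) and in 20.7%. No match of one motif overlapped a match of another in the windows of these 8 genes.

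The transgene checks the labels in the table only, where its row read between 0.0928 and 0.145 TPM in control livers, between 705 and 1705 TPM in A3B livers, between 0.435 and 0.526 TPM in control lungs and between 90.6 and 281 TPM in A3B lungs. Total estimated counts ran from 65161064 to 118976013 per sample in liver and pancreas. Defining markers were present in each labelled tissue, with summed TPM of 31400 to 140000 for 6 hepatocyte genes in the livers of the transcript set, 5590 to 8870 for the same genes in those of the table, 45500 to 201000 for 6 acinar genes in the pancreases and 16500 to 18900 for 5 epithelial genes in the lungs. The share of counts held by the top 10 genes of a sample was 62.2% and 59.5% in the 2 control pancreases and 12% to 20.4% in the A3B pancreases. TPM of most other genes was therefore higher in A3B pancreases, and 82.0% of genes averaging 1 TPM or more had A3B and control ranges that did not overlap, A3B higher. Counts were for this reason scaled by TMM, which sets the bulk of genes level, and the pancreas values below are TMM-scaled CPM (a count relative to the rescaled library total, not corrected for length) unless TPM is named. The TMM scale moved the median log2 fold change of all pancreas genes from 2.29 to 0.09, and that of liver genes from 0.67 to 0.21.

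In the pancreas, 7 of the 10 genes rose in A3B mice and none fell. They were the cytosolic RNA sensors Ddx58 (2.95-fold), Ifih1 (3.17-fold) and Dhx58 (7.35-fold), the kinase Eif2ak2 (4.57-fold), the endosomal receptor Tlr3 (4.2-fold), the adaptor Tmem173 (3.56-fold) and the exonuclease Trex1 (8.35-fold). Among all 19142 genes tested with edgeR, 31.9% passed an adjusted p of 0.05 and 17.0% were called higher. The median log2 fold change of the 10 genes was 1.95, against 0.09 for all genes tested. In bulk tissue, fewer cells of a type and less RNA per cell cannot be told apart.

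**Figure D1:**
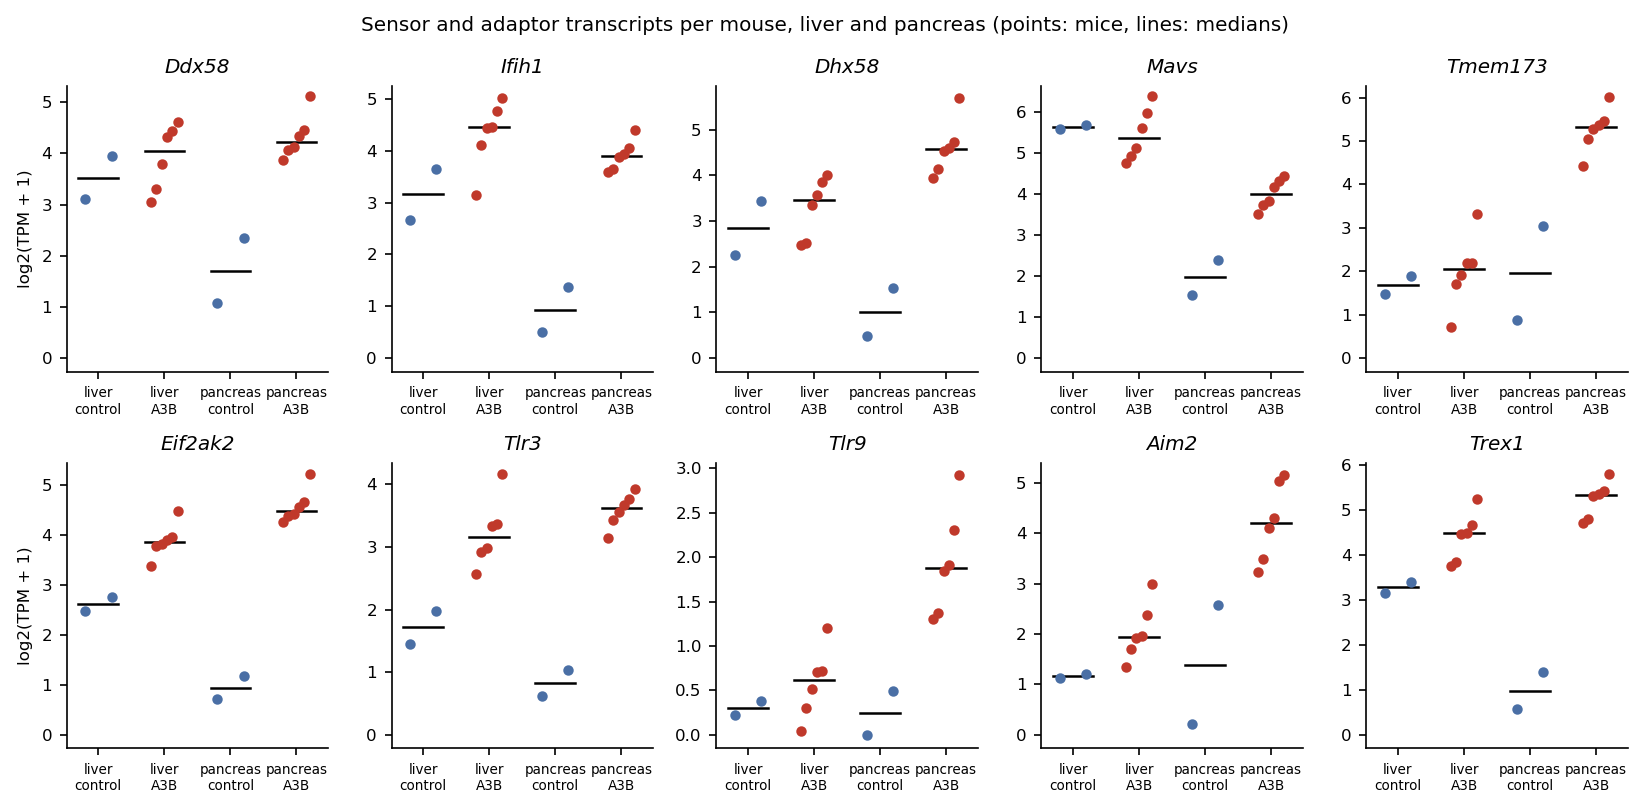
Levels of the 10 genes in liver and pancreas as log2(TPM + 1), with 1 point per mouse, blue for controls (2 per tissue), red for A3B mice (6 per tissue) and a line at the group median. A3B pancreases lie above both control pancreases for every gene, on a scale where 82.0% of genes do so, while liver groups overlap for Ddx58, Ifih1, Dhx58, Mavs, Tmem173 and Tlr9.

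Ddx58 stood at 9.64 CPM in control pancreas 45 and 15.4 in control 168, and at 26.9 (lowest), 34.7 (median) and 49.6 (highest) in the 6 A3B pancreases. The log2 fold change was 1.56 ± 0.31 (SE), with an adjusted p of 0.00412 from edgeR. Ifih1 read 7.12 and 12.3 CPM in the controls and 23.6, 30.6 and 37.1 in the A3B pancreases. Its log2 fold change was 1.67 ± 0.29 (adjusted p = 0.00195, edgeR). For both genes every A3B pancreas was above both controls. Dhx58 had the largest fitted change of the RNA sensors, at 2.3 and 5.12 CPM in controls and 15.4, 27.1 and 43.0 CPM in A3B mice, with a log2 fold change of 2.88 ± 0.46 (adjusted p = 0.00145, edgeR). The lowest A3B pancreas for Dhx58, that of mouse 125, was still above the higher control.

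The adaptors of the RNA and DNA arms moved differently in size, though no test compared them. Mavs, the adaptor below RIG-I and MDA5, read 24.4 and 23.9 CPM in controls and 18.5, 27.7 and 35.0 CPM in A3B pancreases, so that the controls lay inside the A3B range. Its log2 fold change of 0.17 ± 0.26 did not pass (adjusted p = 0.65, edgeR), although counts scaled by their totals gave 2.36 (adjusted p = 0.000404, edgeR) and limma on log2(TPM + 1) gave 2.04 (adjusted p = 0.00013). Tmem173, the STING gene, read 3.56 CPM in control 45 and 13.0 in control 168, and 15.5, 32.2 and 36.0 CPM in A3B pancreases. The groups did not overlap, and the log2 fold change was 1.83 ± 0.49 (adjusted p = 0.0191, edgeR). The 2 controls of Tmem173 differed by more than those of Mavs. Without control 45 the Tmem173 change was 1.21 and no longer passed (adjusted p = 0.0764, edgeR), without control 168 it was 3.08, and without A3B pancreases 44 and 137, whose genotype field goes against their titles, it was 1.67 (adjusted p = 0.0707, edgeR).

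Eif2ak2, the PKR gene, read 8.49 and 9.65 CPM in controls and 34.8, 37.7 and 54.9 CPM in A3B pancreases. The log2 fold change was 2.19 ± 0.26 (adjusted p = 0.000351, edgeR). Trex1, the main cytosolic DNA exonuclease, rose from 2.03 and 2.94 CPM to 15.0, 22.8 and 25.3 CPM, with a log2 fold change of 3.06 ± 0.33 (adjusted p = 0.000255, edgeR). Trex1 lies wholly inside the annotated Atrip locus on the same strand (Trex1 at chr9:109057933-109059734, Atrip at chr9:109057933-109074124, GRCm38), so reads shared by the 2 genes could be divided either way in the estimate. Atrip, named here after its values were seen, read 0.989 and 1.54 TPM in control pancreases and 4.41 to 7.27 TPM in A3B pancreases. On the TPM scale 82.0% of genes averaging 1 TPM or more were separate with A3B higher, so these values show no rise beyond that of most genes.

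Of the endosomal receptors, Tlr3 read 3.01 and 5.76 CPM in controls and 12.5, 19.3 and 22.0 CPM in A3B pancreases, with a log2 fold change of 2.07 ± 0.33 (adjusted p = 0.00142, edgeR). Tlr9 had 0 estimated counts in control 45, which allows up to 3 counts, 2.7 CPM in control 168, and 3.4, 5.54 and 10.9 CPM in A3B pancreases. The ranges did not overlap, but the log2 fold change of 2.16 ± 1.12 did not pass (adjusted p = 0.171, edgeR). Aim2 read 0.493 CPM in control 45 and 10.5 in control 168, so that control 168 lay within the A3B values of 6.0, 9.89 and 17.9 CPM, and its change of 0.92 ± 0.87 did not pass (adjusted p = 0.448, edgeR). Aim2 turned on the controls, with a change of 0.02 without control 45 (adjusted p = 0.979, edgeR) and of 4.43 without control 168 (adjusted p = 0.00361, edgeR). Without control 168 Tlr9 was called as well (adjusted p = 0.00159, edgeR), its only remaining control being the sample at 0. Control 168 was the higher control for every gene except Mavs on the TMM scale. On the TMM scale 8 of the 10 genes had A3B values above both controls, and 25.1% of all genes tested did.

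No A3B pancreas led throughout on the TMM scale. Mouse 49 was the highest for Ddx58, Dhx58, Eif2ak2 and Tlr9, mouse 44 for Ifih1 and Trex1, mouse 137 for Tmem173 and Tlr3, mouse 153 for Mavs and mouse 53 for Aim2. Mouse 49 read 43.0 CPM for Dhx58, where the next, mouse 44, read 31.4, and 49.6 CPM for Ddx58, where mouse 44 read 45.7. The count of called genes was 7 without mouse 49, where 29.9% of all genes were called. Cell markers moved in the same samples. Of 10 macrophage markers 7 were called higher (median log2 fold change 2.87), and their summed TPM was 17.8 and 88.2 in control pancreases and 1260 to 3340 in A3B pancreases. Of 6 acinar markers 5 were called lower (median -4.74), with summed TPM of 190000 and 201000 in controls and 45500 to 141000 in A3B mice. B cell and T cell markers had no call (median log2 fold change -2.43 and -1.21). Their sums were 0.688 and 69.0 TPM (B cell) and 0.364 and 34.3 TPM (T cell) in controls 45 and 168, against 3.84 to 89.9 and 9.23 to 91.9 TPM in A3B mice. These sums are on the TPM scale, where most genes were higher in A3B pancreases. Of the other marker lists in pancreas, 1 of 5 neutrophil markers was lower (median -1.28), 1 of 4 endothelial markers was higher (0.35) and 1 of 5 lung epithelial markers was higher (1.09). None of 5 plasmacytoid dendritic cell (-0.9) and 6 hepatocyte markers (0.77) was called. The part of these cell markers in the pancreas result was not tested.

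In the livers of the same data, none of the 10 genes passed. With edgeR 2 had an unadjusted p under 0.05. DESeq2 called 0, where it called 13.1% of all genes. Limma on log2(TPM + 1) called 1, Eif2ak2 (1.27, adjusted p = 0.0435), where it called 6.02% of all genes. With edgeR the share called among all 17376 genes tested was 3.66%, and 1.25% were higher. The median log2 fold change of the 10 genes was 0.58, against 0.21 for all genes tested. Tlr3 had the largest change, from 4.62 and 6.04 CPM in controls to 5.75, 14.5 and 19.4 CPM in A3B livers (lowest, median and highest), a log2 fold change of 1.33 ± 0.45 (adjusted p = 0.123, edgeR). The lowest A3B liver for Tlr3, mouse 125, lay between the 2 controls. Trex1 read 7.17 and 7.2 CPM in controls and 8.61, 13.8 and 18.1 CPM in A3B livers, a change of 0.90 ± 0.34 (adjusted p = 0.151, edgeR), and here the groups did not overlap.

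The RNA sensors overlapped between liver groups. Ddx58 read 25.3 and 42.1 CPM in controls and 15.2, 34.6 and 49.3 CPM in A3B livers (log2 fold change -0.04 ± 0.42), and Dhx58 read 7.59 and 16.9 CPM in controls and 5.14, 13.0 and 19.2 CPM in A3B livers (0.01 ± 0.50). The sign of these changes depended on the scaling. Ddx58 was 0.45 with counts scaled by their totals, and Dhx58 was -0.06 with DESeq2. Ifih1 read 22.5 and 41.2 CPM in controls and 27.8, 44.3 and 57 CPM in A3B livers, a change of 0.49 ± 0.34 (adjusted p = 0.423, edgeR), which ran from 0.03 to 0.90 without each sample in turn. Eif2ak2 read 17.5 and 20.2 CPM in controls and 14.7, 31.9 and 43.7 CPM in A3B livers, a change of 0.67 ± 0.38 (adjusted p = 0.326, edgeR). Mavs, at 122 and 134 CPM in controls and 49.6, 88.2 and 131 CPM in A3B livers, had the most negative change of the 10 genes (-0.47 ± 0.36, adjusted p = 0.466, edgeR).

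Tmem173, Tlr9 and Aim2 were low in the livers of the transcript set. Tmem173 read 2.58 and 3.07 CPM in controls and 0.727, 2.5 and 5.39 CPM in A3B livers (log2 fold change -0.01 ± 0.63), Tlr9 0.559 and 0.87 CPM against 0.0855, 1.14 and 2.97 CPM (0.80 ± 0.98), and Aim2 0.964 and 1.44 CPM against 1.49, 1.7 and 4.25 CPM (0.80 ± 0.58). The lowest A3B liver for Tmem173 and Tlr9 was mouse 48 and the highest mouse 49. Summed macrophage markers followed the same order at the ends, at 39.6 TPM in A3B liver 48 and 1180 TPM in A3B liver 49, against 372 and 449 TPM in controls, and their part in these levels was not tested. Aim2 and Trex1 were the 2 genes whose liver groups did not overlap on the TMM scale, where 15.0% of all genes were separate with A3B higher. In TPM 4 genes were separate (Eif2ak2, Tlr3, Aim2 and Trex1), against 26.0% of all genes. Other cell markers also differed between these livers. The 6 hepatocyte markers summed to 82300 and 140000 TPM in controls and 31400 to 79700 TPM in A3B livers, and the 5 neutrophil markers to 2.83 and 4.79 TPM in controls and 5.41 to 119 TPM in A3B livers. None of either list was called (median log2 fold change -0.37 and 3.02), and their part in the liver values was not tested.

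An interaction term over the 16 samples tested whether the A3B effect was larger in one of the organs. Of the 10 genes 4 had a larger log2 change in pancreas, namely Ddx58 by 1.76 ± 0.55 (adjusted p = 0.0471), Dhx58 by 3.04 ± 0.71 (adjusted p = 0.0144), Eif2ak2 by 1.69 ± 0.45 (adjusted p = 0.0243) and Trex1 by 2.34 ± 0.44 (adjusted p = 0.00616, all edgeR). Among all 19927 genes tested, 11.9% passed and 6.87% had a larger change in pancreas. Ifih1 came close at 1.35 ± 0.44 (adjusted p = 0.0579, edgeR), and Tmem173 differed by 2.02 ± 0.79 (adjusted p = 0.103, edgeR). The difference did not pass for Mavs (0.81), Tlr3 (0.91), Tlr9 (1.54) or Aim2 (0.29). Without control pancreas 168 Aim2 (3.84, adjusted p = 0.0299), Tmem173 (3.29, adjusted p = 0.0412), Ifih1 (1.85, adjusted p = 0.0428) and Tlr9 (adjusted p = 0.0373, the remaining control pancreas at 0) passed, and without A3B liver 49 Tmem173 passed (2.30, adjusted p = 0.0409, all edgeR). The test shares its samples with the comparisons within each tissue, so it is not separate evidence. Trex1 passed without each sample in turn, with adjusted p between 0.00477 and 0.047 (edgeR). The number of genes called moved furthest without a control, in fits that kept 1 control in that tissue. The share of all genes called fell in each of these fits. Ddx58 passed without 4 of the 16 samples only, and without control liver 45 its difference was 1.37 (adjusted p = 0.232, edgeR). Dhx58 was lost without control liver 45 (2.37, adjusted p = 0.101, edgeR) and without control pancreas 45 (2.59, adjusted p = 0.092, edgeR). Eif2ak2 was lost without any of the 4 control samples, at differences of 1.60 to 1.83 and adjusted p of 0.0552 to 0.111 (edgeR).

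**Figure D2:**
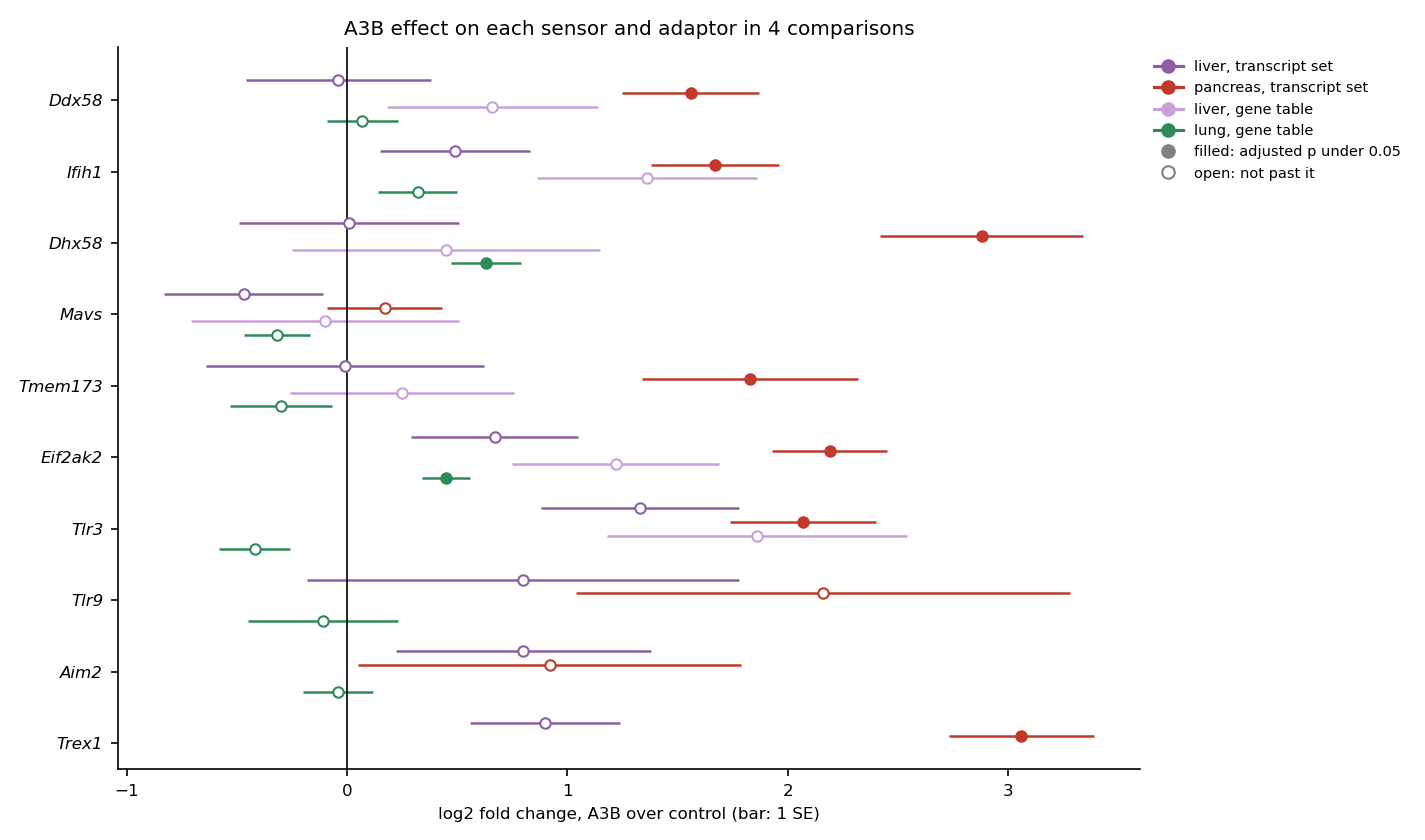
Log2 fold change of A3B over control for each gene in the 4 comparisons, with bars of 1 SE. Filled points passed an adjusted p of 0.05, which holds for 7 genes in pancreas (edgeR, estimated counts) and for Dhx58 and Eif2ak2 in lung (limma, log2(TPM + 1)). Genes with no point for a table comparison were below the mean of 1 TPM needed for the test in the table.

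In the table for liver and lung, 7 of the 10 genes had a mean of at least 1 TPM in liver and were tested with limma, and none passed. Of these 7, 3 had an unadjusted p under 0.05 (limma), and the share called among all 11507 genes tested was 7.93%, and 6.07% were higher. Ifih1 read 43.2, 25.9 and 25.0 TPM in control livers 11, 91 and 92 and 55.5, 165 and 54.9 TPM in A3B livers 23, 28 and 70, a log2 fold change of 1.36 ± 0.50 (adjusted p = 0.111, limma), which was 0.84 without A3B liver 28. Tlr3 read 3.58, 1.39 and 0.906 TPM in controls and 3.03, 25.4 and 8.31 TPM in A3B livers, a change of 1.86 ± 0.68 (adjusted p = 0.114, limma), which was 1.15 without A3B liver 28 and 2.51 without A3B liver 23. Eif2ak2 read 8.23, 4.3 and 4.99 TPM in controls and 8.0, 27.8 and 13.3 TPM in A3B livers, a change of 1.22 ± 0.47 (adjusted p = 0.125, limma), which was 0.77 without A3B liver 28. The Ifih1 groups did not overlap, while A3B liver 23 lay below control liver 11 for Tlr3 and Eif2ak2.

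A3B liver 28 stood apart from the other A3B livers of the table for the RNA sensors. It read 28.8 TPM for Dhx58 against 4.0 and 4.31 in A3B livers 23 and 70 and 8.89, 4.35 and 4.86 in controls. It read 39.1 TPM for Ddx58 against 11.2 and 21.0 in A3B mice and 19.2, 9.95 and 11.5 in controls. It was the highest of the A3B livers for 7 of 9 genes with values and the lowest for Mavs, at 13.3 TPM against 58.1 and 66.6 in A3B mice and 54.5, 29.7 and 40.1 in controls. The same sample read 27.2 TPM for Ifnb1, the interferon-beta gene, where the other 11 samples of the table read 0 to 0.298 TPM. Ifnb1 is named after its values were seen. The log2 fold change was 0.45 ± 0.70 for Dhx58, 0.66 ± 0.48 for Ddx58 and -0.10 ± 0.61 for Mavs, and without A3B liver 28 it was -0.39 for Dhx58, 0.23 for Ddx58 and 0.62 for Mavs, none of them past the threshold. Control liver 11, the double-transgenic control, was the highest control for all 9 genes with values. The count of called genes was 0 without it as well, where 13.6% of all genes were called. Summed macrophage markers were 697 to 946 TPM in the control livers of the table and 455 to 1140 TPM in its A3B livers, A3B liver 28 reading 1050. Hepatocyte markers summed to 7340 to 8870 TPM in these controls and 5590 to 6720 TPM in A3B livers, with 1 of 6 called lower. Neutrophil markers summed to 9.51 to 21.9 TPM in these controls and 11.9 to 117 TPM in A3B livers, with 0 of 3 tested called. The part of these markers in the values was not tested.

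Tmem173 read 13.9, 11.7 and 12.1 TPM in control livers and 6.66, 31.5 and 15.8 TPM in A3B livers, a change of 0.25 ± 0.51 (adjusted p = 0.753, limma). The control livers of the transcript set read 1.79 and 2.69 TPM for the same gene. Tlr9 (0.106 to 0.994 TPM in the 6 livers) and Aim2 (0.123 to 0.969 TPM) were below the filter. Aim2 was above all controls in all 3 A3B livers, and 2 of the 10 genes, Aim2 and Ifih1, had separate groups with A3B higher, as had 28.5% of all genes averaging 1 TPM or more. Trex1 is listed at 0 in all 12 samples of the table, and so is Atrip, while the transcript estimates gave Trex1 7.96 to 36.7 TPM in every liver of the other set. The Trex1 row of the table was not read as a level.

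When the livers of both data sets were joined in an exact permutation test that exchanged labels only within a set (two-sided, 560 arrangements, smallest possible p 0.00179), 3 of 7 genes passed. The mean log2 difference on the log2(TPM + 1) scale was 1.26 for Ifih1 (p = 0.00714, adjusted p = 0.0267), 1.24 for Eif2ak2 (p = 0.00357, adjusted p = 0.0172) and 1.68 for Tlr3 (p = 0.00357, adjusted p = 0.0172, all exact permutation). Of all 10150 genes tested this way 35.8% passed and 28.4% were higher, against which the 3 of 7 should be read. Ddx58 (0.52), Dhx58 (0.45), Mavs (-0.13) and Tmem173 (0.29) did not pass. The test uses the same livers as the comparisons above. Leaving out a control leaves fewer arrangements and a larger smallest p, and 0 genes passed without transcript set control 168, 1 without its control 45 and 1 without table control 91 or 92. The differences without control 168 were 1.02 for Ifih1, 1.17 for Eif2ak2 and 1.55 for Tlr3. Without table A3B liver 28 the Ifih1 difference was 1.0 and no longer passed (adjusted p = 0.0549, exact permutation).

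In lung, 9 of the 10 genes were tested and 2 rose, Dhx58 by 1.55-fold and Eif2ak2 by 1.37-fold. Dhx58 read 4.88, 7.0 and 7.36 TPM in control lungs 87, 88 and 91 and 9.07, 10.7 and 11.4 TPM in A3B lungs 69, 70 and 74, a log2 change of 0.63 ± 0.16 on the log2(TPM + 1) scale (adjusted p = 0.024, limma). Eif2ak2 read 8.68, 10.2 and 9.24 TPM in controls and 12.7, 12.1 and 14.9 TPM in A3B lungs, a change of 0.45 ± 0.11 (adjusted p = 0.0222, limma). The groups of both genes were separate, as were those of 23.3% of all genes with A3B higher. Among all 13651 genes tested in lung 36.8% passed, 16.1% higher and 20.8% lower, so 2 of 9 is close to that share. The size of both changes held when a mouse was left out, but the calls did not. Dhx58 no longer passed without A3B lung 70 (0.61, adjusted p = 0.0708, limma) or 74 (0.57, adjusted p = 0.0689, limma), and Eif2ak2 no longer passed without control 87 (0.40), control 91 (0.44), A3B lung 69 (0.48) or A3B lung 74 (0.37), with adjusted p between 0.0562 and 0.0633 (limma).

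Tlr3 and Mavs were separate in the other direction in lung. Tlr3 read 11.4, 14.6 and 10.8 TPM in controls and 8.02, 8.06 and 10.7 TPM in A3B lungs, a change of -0.42 ± 0.16 that did not pass (adjusted p = 0.0742, limma) except without A3B lung 74 (-0.54, adjusted p = 0.0432, limma). Mavs read 16.6, 21.7 and 15.3 TPM in controls and 12.6, 14.9 and 14.5 TPM in A3B lungs (-0.32 ± 0.15, adjusted p = 0.123, limma). Of all genes 30.6% were separate with A3B lower. Ifih1 read 33.7, 42.3 and 31.8 TPM in controls and 40.0, 39.6 and 56.5 TPM in A3B lungs (0.32 ± 0.18, adjusted p = 0.19, limma), and Ddx58 23.7, 31.9 and 26.2 TPM against 26.0, 25.8 and 34.5 TPM (0.07 ± 0.16). Tmem173 was the most abundant in lung of the 9 genes read as a level, at 70.3, 128 and 114 TPM in controls and 78.9, 93.7 and 73.8 TPM in A3B lungs (-0.30 ± 0.23, adjusted p = 0.333, limma), and it was called lower only without control 87 (-0.56, adjusted p = 0.0337, limma). Tlr9 (2.12 to 6.54 TPM) and Aim2 (1.3 to 2.31 TPM) overlapped between groups.

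**Figure D3:**
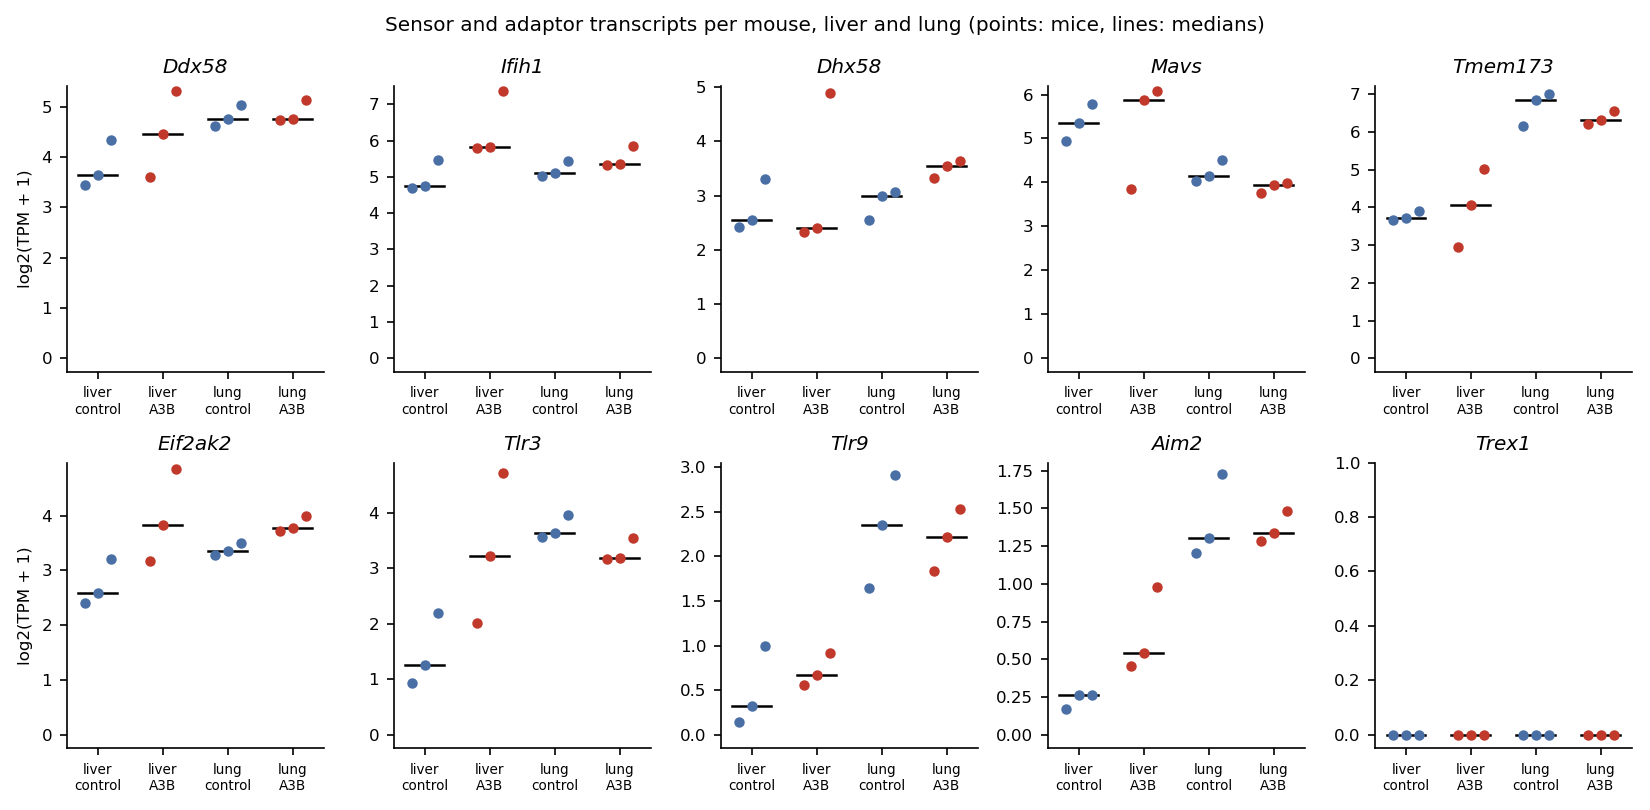
Levels of the 10 genes in liver and lung of the gene table as log2(TPM + 1), with 1 point per mouse, blue for controls, red for A3B mice (3 per group) and a line at the group median. Among the livers, A3B liver 28 lies above the rest for Dhx58 (28.8 TPM) and below the rest for Mavs (13.3 TPM), and Trex1 is listed at 0 throughout.

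The difference of the A3B effect between liver and lung passed for 0 of 9 genes with limma, 1 of which had an unadjusted p under 0.05, and 10.7% of all 13477 genes tested passed. Tlr3 differed most, by 2.28 ± 0.79 on the log2(TPM + 1) scale (adjusted p = 0.0871, limma). Livers and lungs of mice 70 and 91 came from the same animals, and with the mouse as a replicate block Tlr3 passed at 2.30 (adjusted p = 0.036, limma). It also passed without control liver 11 (2.64, adjusted p = 0.0478, limma) or without A3B liver 23 (2.93, adjusted p = 0.0198, limma). The share of all genes called was 19.3% with the block, 20.9% without control liver 11 and 11.3% without A3B liver 23.

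The order of levels differed between tissues, compared in TPM, and for liver also between the data sets. In control livers of the transcript set Mavs was highest, at 47.1 and 50.2 TPM, apart from the next gene, and the medians then ran through Ddx58, Trex1, Ifih1, Dhx58 and Eif2ak2, whose neighbours overlapped, down to Tlr9 at 0.166 and 0.304 TPM. In A3B pancreases Trex1 (25.3 to 54.6 TPM, median 39.3) and Tmem173 (20.6 to 63.1 TPM, median 39.1) led, and every gene overlapped its neighbour in the order except Tlr9, which stood apart at 1.47 to 6.57 TPM. In control pancreases the 2 values of most genes spanned their neighbours. Tlr9, at 0 and 0.403 TPM, had the lowest median, and Aim2 read 0.153 TPM in control 45. In control lungs, from the table, Tmem173 stood apart at the top, followed by Ifih1 and Ddx58, which overlapped. The control livers of the table had Mavs (median 40.1 TPM) first, then Ifih1 (25.9 TPM), which overlapped it, and Tmem173 (12.1 TPM).

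Transcript estimates say which isoforms carried these levels, with the limit that kallisto divides reads between overlapping transcripts. In pancreas 13 of 53 tested transcripts of the 10 genes were called higher and none lower with edgeR, where 16.3% of all transcripts tested were called and 13.0% were higher. DESeq2 called 21 of the 53, where it called 24.8% of all transcripts. In liver edgeR called 0 of 43 (0.161% of all, 0.0235% higher), and DESeq2 called 2 (5.59% of all). The protein-coding transcripts called in pancreas were Ddx58-201, Dhx58-201, Eif2ak2-201, Ifih1-201, Ifih1-202, Tlr3-205 (listed at 0 in both controls) and Trex1-202. Trex1-202 rose from 0.492 and 1.34 TPM to 22.8 to 49.9 TPM (log2 fold change 3.53 ± 0.42, adjusted p = 0.0017, edgeR) and made up 89.4% of Trex1 TPM in A3B pancreases and 77.8% in A3B livers. Eif2ak2-201 rose from 0.416 and 1.13 TPM to 11.7 to 25.2 TPM (2.61 ± 0.31, adjusted p = 0.0017, edgeR). Of MDA5, Ifih1-202 gave 49.8% of the TPM in A3B pancreases and Ifih1-201 gave 25.5%.

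Non-coding models took part of the TPM in both groups. Eif2ak2-203, a processed transcript, made up 1.76% of Eif2ak2 TPM in control livers, 26.7% in A3B livers, 11.9% in control pancreases and 27.3% in A3B pancreases. In control pancreases the processed transcripts Dhx58-204 and Ddx58-208 made up 51.5% and 24.0% of their gene, against 10.8% and 5.01% in A3B pancreases. These shares were given no test. In livers Eif2ak2-203 read 0.0732 and 0.11 TPM in controls and 0.721 to 6.1 TPM in A3B mice, though its change did not pass (adjusted p = 0.125, edgeR). The retained-intron model Ifih1-203 was called in pancreas, from 0.0578 and 0.0634 TPM to 1.38 to 2.86 TPM (3.14 ± 0.64, adjusted p = 0.0116, edgeR). Of the STING signal, Tmem173-206, a retained-intron model called higher in pancreas (1.99 ± 0.51, adjusted p = 0.0297, edgeR), held 42.9% in control and 50.6% in A3B pancreases, and 49.0% in control and 35.2% in A3B livers. In A3B pancreases 19.3% was assigned to the protein-coding Tmem173-201, which did not pass (adjusted p = 0.0633, edgeR).

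**Figure D4:**
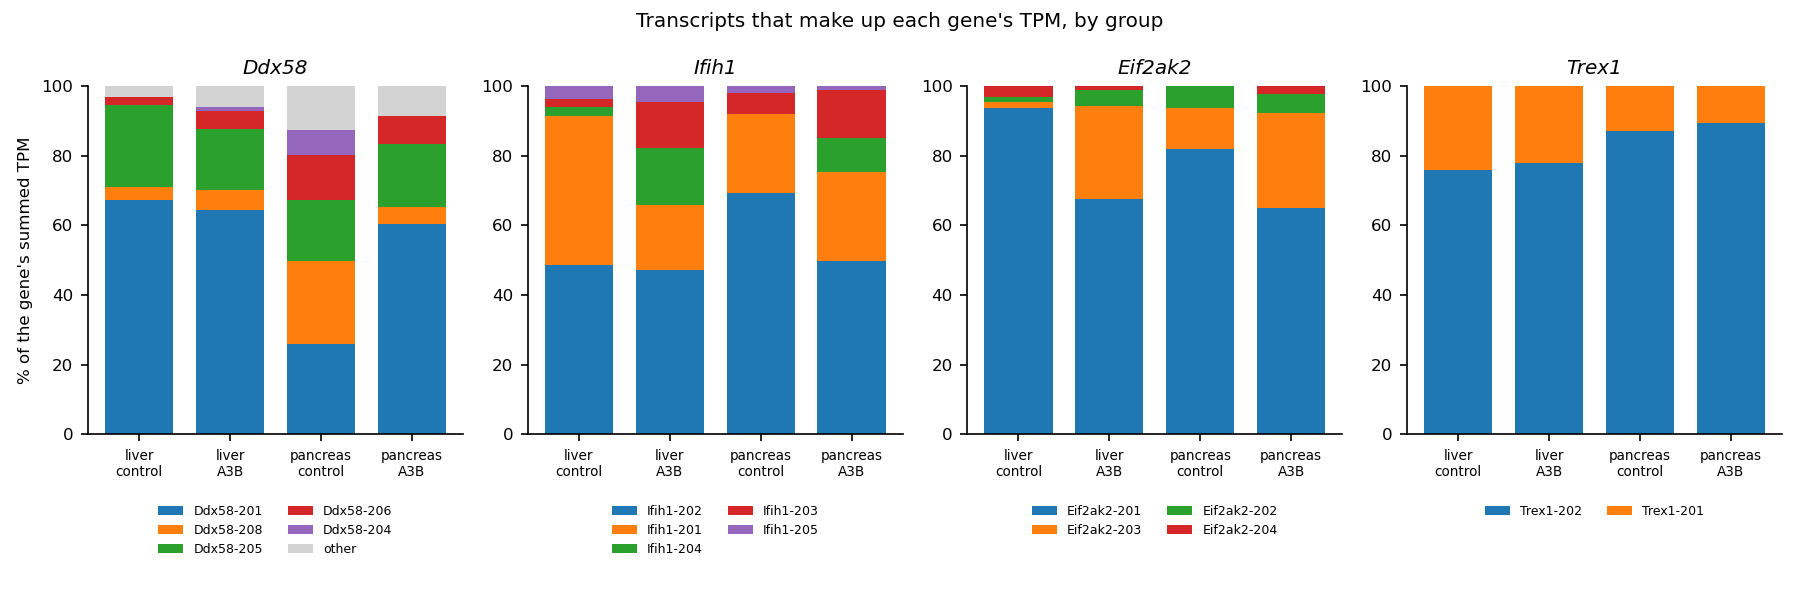
Share of each gene's summed TPM by transcript for Ddx58, Ifih1, Eif2ak2 and Trex1 in control and A3B livers and pancreases (2 and 6 mice per tissue). Eif2ak2-201 gives 93.7% of Eif2ak2 TPM in control livers and 67.5% in A3B livers, and Trex1-202 gives between 76.0% and 89.4% of Trex1 TPM in all 4 groups.

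The genes that act beside the 10 were read from lists of partners, to be read in pancreas against 17.0% of all genes called higher, 31.9% called in either direction and a median of 0.09. In pancreas 8 of 16 RIG-I-like receptor partners were called higher and 1 lower (median log2 fold change 0.70), led by the transcription factor Irf7 (23.0-fold), the ubiquitin ligase Trim25 (2.49-fold), which activates RIG-I, and the antiviral zinc-finger protein gene Zc3hav1 (2.95-fold). Of 16 endosomal Toll-like receptor partners 10 were called higher and 2 lower (median 1.44), led by the endosomal protease Lgmn (15.2-fold), the co-receptor Cd14 (9.44-fold) and the RNA receptor Tlr13 (19.0-fold). Of 16 double-stranded RNA effectors 9 were called higher and 1 lower (median 1.73), led by Oas3 (73.9-fold), Ifit3 (19.5-fold) and Ifit1 (14.4-fold), whose families hold close paralogs between which reads could be divided. Cytosolic DNA sensing partners were split, with 4 of 15 higher and 3 lower (median 0.51). Zbp1, a sensor of Z-form nucleic acid, was 13.1-fold higher, whereas the ubiquitin ligase Rnf5 (log2 fold change -1.54) and the DNA-PK subunit Prkdc (-1.12) were lower. Of 16 genes of self nucleic acid clearance 3 were higher, Pld4 (7.92-fold) and Pld3 (4.5-fold) first, and 1 was lower, Rnaseh2c (-1.17), with a median of 0.32. All adjusted p of these genes lay between 0.000149 and 0.0161 (edgeR).

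In the list of interferon ligands, receptors and signalling 15 of 20 genes could be tested in pancreas and 9 were higher (median 1.08), led by the deubiquitinase Usp18 (40.2-fold), the lambda receptor Ifnlr1 (7.27-fold) and Irf9 (3.02-fold). Ifnb1 had 0 counts in both control pancreases and both control livers, which allows up to 3 counts in each, and read 0.314 to 0.595 TPM in all 6 A3B pancreases and 0.0277 to 0.559 TPM in all 6 A3B livers, while A3B liver 28 of the table read 27.2 TPM, as given above. In liver Usp18 passed in both data sets, at 10.1-fold in the transcript set (adjusted p = 0.0069, edgeR) and 19.5-fold in the table (adjusted p = 0.0109, limma). It was the only call of its list, of 13 genes tested in the transcript set and 14 in the table. Ifit1 passed in both as well, at 4.53-fold (adjusted p = 0.0262, edgeR) and 8.19-fold (adjusted p = 0.0411, limma). It was the only call of 16 double-stranded RNA effectors in each set. No test compared these lists with the 10 genes. Of the other lists in liver, 0 of 16 RIG-I-like receptor partners were called in the transcript set (median 0.17, against 0.21 for all genes, of which 3.66% were called), and 2 were called higher in the table, where 7.93% of all genes were called and 6.07% were higher, Tbk1 (3.21-fold) and Traf6 (3.79-fold), with Nlrx1 lower (-1.15). Of the endosomal receptor partners Irak1 was lower in the transcript set (-1.21, adjusted p = 0.0377, edgeR), and of the clearance genes Dnase2a was lower in the table (-1.32, adjusted p = 0.0492, limma). The other genes of these lists had no call in liver, nor had any of the cytosolic DNA sensing partners.

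In lung, where 16.1% of all genes were called higher and 20.8% lower with a median of -0.06, double-stranded RNA effectors had 9 of 16 genes higher and 3 lower (median 0.53), RIG-I-like receptor partners 6 of 16 higher and 2 lower (median 0.19), and cytosolic DNA sensing partners 1 of 11 tested higher and 5 lower (median -0.23). Irf7 rose 4.86-fold (adjusted p = 0.00315, limma), Rnf125, a ubiquitin ligase that marks RIG-I for degradation, 6.71-fold (adjusted p = 0.00203, limma) and the RNA-editing enzyme gene Adar 1.69-fold (adjusted p = 0.00763, limma). Of the cytosolic DNA sensing partners Trim56 rose 1.97-fold (adjusted p = 0.00354, limma). The inflammasome genes Pycard (-1.16) and Casp1 (-0.56) fell, and so did all 3 subunits of RNase H2, Rnaseh2a (-0.48), Rnaseh2b (-1.02) and Rnaseh2c (-0.90), with adjusted p between 0.0056 and 0.0116 (limma). The clearance list held 4 genes lower and 1 higher of 14 tested (median -0.19), and the interferon list 5 higher and 3 lower of 13 (median -0.13), led by the receptor chains Ifngr1 (1.44-fold), Ifngr2 (-0.72) and Ifnar2 (-0.54). Of 16 endosomal Toll-like receptor partners 3 were higher and none lower (median 0.09), led by Irak2 (2.02-fold), Cd14 (1.99-fold) and Tlr8 (1.64-fold), with adjusted p between 0.00237 and 0.019 (limma). Of 10 macrophage markers 2 were higher in lung and none lower, and their summed TPM was 401 to 558 in controls and 451 to 710 in A3B lungs. Markers of other cells were called lower there, 2 of 5 lung epithelial, 1 of 4 endothelial and 1 of 5 tested B cell markers, the B cell sum being 65.8 to 315 TPM in controls and 38.8 to 100 TPM in A3B lungs. None of 6 T cell, 4 tested plasmacytoid dendritic cell, 4 tested neutrophil and 6 hepatocyte markers was called. The part of these cell markers in the lung values was not tested.

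Within groups, the 10 genes varied together only in part. After the group mean was subtracted from log2 CPM over the 16 liver and pancreas samples, Ddx58 and Dhx58 had the highest Pearson correlation of any pair (0.946), and Tmem173 followed Tlr9 (0.848) and Tlr9 followed Aim2 (0.809). Mavs and Aim2 had the lowest (-0.27), and Eif2ak2 was near 0 with Tlr9 (-0.042) and Tmem173 (-0.068). Among 13219 genes tested in both tissues with a mean of at least 1 TPM, those closest to Ddx58 included Pml (0.947) and Dhx58 (0.946), and those closest to Tlr3 were Parp9 (0.948), Zbp1 (0.915) and Zfp518b (0.913). Tlr9 was closest to Arhgap30 (0.981), Pik3cd (0.979) and Syk (0.974), Tmem173 to Scimp (0.961), P2ry13 (0.96) and Plekha2 (0.958), and Aim2 to Ms4a4b (0.958), Tnfrsf13b (0.952) and Casp4 (0.947). Eif2ak2 was closest to Xndc1 (0.97), Mavs to Ppp1r10 (0.946), Ifih1 to Misp (0.916) and Trex1 to St6gal1 (0.878). The samples share mice, depth and composition, so these correlations describe the 16 samples and were given no test.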

How the data were processed

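RNA was sequenced from stranded total RNA libraries of 28 mouse samples. For 16 livers and pancreases the authors deposited, per transcript, kallisto estimated counts and TPM against mm10 transcripts. For 12 livers and lungs the deposited table holds TPM per gene, computed from alignments named as deduplicated with GenomicAlignments and GenomicFeatures, the study aligning RNA reads to mm10 with STAR without saying whether these alignments made the table. Here 116728 of 119414 transcripts were matched to 35928 GENCODE M21 symbols, and the 2686 others held 0.225% to 1.46% of counts. Estimated counts were summed per gene, rounded, filtered with filterByExpr, scaled by TMM and compared by edgeR 4.0.16 (quasi-likelihood F test, robust) in R 4.3.3. Table values were tested as log2(TPM + 1) with limma (trend, robust) where the mean was at least 1 TPM, so fold changes of low genes are understated. P-values were adjusted by Benjamini-Hochberg over all genes tested, at 0.05. Alternatives were DESeq2, other scalings, filters and pseudocounts, Y-chromosome expression as a covariate, and leaving out samples. Scripts were tested on simulated data. No gene of this set was dropped for being low in pancreas or in the livers of the transcript set. In the gene table, livers dropped 3 (Tlr9, Aim2 and Trex1) and lungs 1 (Trex1).

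Names in the text were drawn by a rule: the 10 genes in every comparison, up to 3 genes with the smallest p among those called of each partner list, and the 3 genes with the highest correlation to each of the 10. Not every partner or correlated gene that the rule picked is named. The 10 genes, the lists and the tests were chosen with earlier results of these data known. Same-numbered samples of different tissues came from the same animal by their titles, 7 mice in the transcript set and 2 in the table. The correlation of their deviations between liver and pancreas ran from -0.00444 to 0.279. The promoter motifs were chosen after the expression values were seen. Intervals for values at 0 cover counting error only. A gene picked by the naming rule is not reported here.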

Additional observations from a re-analysis of the deposited data

Results flagged for a closer look

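Among the groups of 6 A3B samples, 20 gene and tissue combinations were examined for a sample far from the other 5, and chance alone would mark about 1 in 20. In pancreas, mouse 49 lay far above the others in TPM for Ddx58 (33.7 TPM), Dhx58 (50.8 TPM) and Eif2ak2 (36.5 TPM). On the TMM scale it was closer to the next mouse, at 49.6 against 45.7 CPM for Ddx58, 43.0 against 31.4 CPM for Dhx58 and 54.9 against 48.4 CPM for Eif2ak2. In liver, mouse 44 lay far above the others in TPM for Tlr3 (17.0 TPM) and mouse 49 for Tmem173 (8.96 TPM). On the TMM scale these read 19.4 CPM, where mouse 48 read 15.4, and 5.39 CPM, where mouse 153 read 3.32.

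The A3B effect was larger in pancreas than in liver, by a test of the difference itself, for Ddx58 (1.76 on the log2 scale), Dhx58 (3.04), Eif2ak2 (1.69) and Trex1 (2.34). The calls for Ddx58, Dhx58 and Eif2ak2 depended on single samples, as given above.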

How the results depend on the processing

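The pancreas calls kept their count within 1.5 times in all alternatives, from 6 without control 45 to 9 without control 168 among the fits that left out a mouse. With limma on log2(TPM + 1) 10 were called, as were 85.0% of all genes tested. The liver count of 0 in the transcript set changed only with limma on log2(TPM + 1), to 1 (6.02% of all genes). It stayed at 0 without each A3B mouse, where 1.03% to 9.34% of all genes were called. The table's liver stayed at 0 without each mouse, and its lung gave 1 to 2. Of all genes, 0.00862% (without control 91) to 13.6% (without control 11) were called in these liver fits. In the lung fits 21.9% to 33.7% were called. The difference between pancreas and liver had 8 calls with counts scaled by their totals, where 40.5% of all genes were called and their median difference was 1.59. It had 4, on the same genes, with the mouse as a replicate block (8.1% of all genes). Without each sample in turn the count moved furthest where 1 control was left in a tissue, and there the share of all genes called fell. The difference between liver and lung had 1 call with the replicate block (19.3% of all genes) and 0 to 1 without each sample (4.21% to 22.7%). The joint liver test gave 0 to 3. DESeq2 called 2 of the genes' transcripts in liver (5.59% of all transcripts) and 21 in pancreas (24.8%), and counts scaled by their totals 26 in pancreas (36.5%).

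Signs turned only for genes that had not passed. In livers of the transcript set Ddx58 was 0.45 with totals, 0.39 with limma on log2(TPM + 1) and 0.37 with Y-chromosome expression as covariate, Dhx58 was -0.06 with DESeq2 and -0.06 with its size factors in edgeR, and Tmem173 was 0.49, 0.33 and 0.11 under the 3 settings named for Ddx58. Centring on sample medians gave -0.01 for Dhx58 and -0.21 for Tmem173 in the table's livers, -0.13 for Tmem173 in the joint liver test, and -0.26 for Mavs, -0.14 for Tlr9 and -0.02 for Aim2 in the difference between liver and lung. Without each sample in turn, log2 values ranged from -0.44 to 0.29 (Ddx58), -0.53 to 0.61 (Dhx58) and -0.37 to 0.11 (Tmem173) in livers of the transcript set, from -0.39 to 0.89 (Dhx58), -0.50 to 0.62 (Mavs) and -0.26 to 0.79 (Tmem173) in the table's livers, from -0.06 to 0.19 (Ddx58), -0.44 to 0.20 (Tlr9) and -0.15 to 0.12 (Aim2) in lung, from -0.62 to 3.84 (Aim2) for pancreas minus liver, from -1.03 to 0.26 (Dhx58) and -0.18 to 0.94 (Mavs) for liver minus lung, and from -0.33 to 0.23 (Mavs) in the joint liver test. The causes were not tested. Only 2 controls per tissue in the transcript set limit every call there, and a lone remaining control was assumed to vary like the A3B group.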
